A study of Mus musculus with 39 samples.

Results

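Genes of 5 splicing factor families were examined in 39 single cells of the irradiated mouse small intestine. A gene was a member when its symbol began with Snrp, with Srsf and a digit, with Sf3a or Sf3b and a digit, with Hnrnp, or with Prpf and a digit, and did not contain -ps. This gave 65 of the 25219 genes with deposited values, namely 12 Snrp, 11 Srsf, 9 Sf3, 20 Hnrnp and 13 Prpf genes. The rule used symbols and no measured value.

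The cells were tdTomato+ Sca1- crypt epithelial cells of mice that carried Lgr5-EGFP-Ires-CreERT2 and Rosa-lsl-tdTomato. In this line a tamoxifen-inducible Cre, made under the control of the Lgr5 locus, marks Lgr5-expressing cells and their progeny permanently with a red fluorescent protein. Tamoxifen was given 24 h before total body irradiation (TBI) with 10 Gy, and the cells were isolated 48 h after it. All 39 cells belonged to this single group, with no unirradiated cell and no Sca1-positive cell among them. No animal is named for any cell, so the cells were treated as 1 biological sample, every spread is a spread over cells, and no p-value was computed. Cells are called here by the numbers in their titles.

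Most introns are removed from precursor mRNA by the spliceosome, which is assembled on each intron from small nuclear ribonucleoproteins (snRNPs), complexes of a short RNA with proteins. The Snrp genes encode the core proteins of these particles and some proteins particular to single particles. The Sf3 genes encode the subunits of SF3a and SF3b, the parts of the U2 snRNP that hold the branch site of the intron. The Prpf genes encode pre-mRNA processing factors, many of them components of the U4/U6.U5 tri-snRNP that brings the catalytic centre. The Srsf genes encode serine and arginine rich proteins that bind exons and promote their inclusion, and the Hnrnp genes encode abundant RNA-binding proteins that coat nascent transcripts and often act against inclusion. Every tissue uses this machinery, and epithelia such as that of the crypt add regulators of their own, among them Esrp1 and Esrp2.

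Levels are given as FPKM, sequenced fragments divided by transcript length and by a total for each cell, so that they can be set side by side between genes. Detection in a cell means a level of 1 FPKM or above. Depth was 398418 to 3903971 estimated counts per cell, with a median of 3089188. Outside the members, 2261 to 5722 genes were detected per cell, with a median of 4557. Cells 9 and 79 stood apart with 2261 and 2312 such genes, and the main results are also given without them. The epithelial markers Epcam and Krt8 were detected in all 39 cells, Cdh1 in 38 and Vil1 in 31. The immune markers Cd3e and Cd79a and the stromal markers Col1a1 and Pecam1 were at 0 in every cell. Ptprc and Vim, an immune and a stromal marker, reached at most 0.312 and 3.29 FPKM.

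Splicing factor genes were among the broadly detected genes of these cells. Of the 65 members, 27 (41.5%) were detected in at least 90% of cells, against 3.57% of all 25219 genes. Without cells 9 and 79, 35 of 65 reached this limit, against 4.4% of all genes. Part of this contrast went with level. Among genes averaging 1 FPKM or more, the shares were 27 of 59 members (45.8%) and 9.18% of 9804 genes. At an average of 10 FPKM or more they were 48.2% of 56 members and 18.1% of 4917 genes. At an average of 100 FPKM or more they were 85.7% of 21 members and 72.5% of 867 genes, so the members lay closest to the background among the most abundant genes. The median member was detected in 89.7% of cells. The spread over cells, as the coefficient of variation (CV, the SD divided by the mean), had a median of 0.99 over the 56 members averaging 10 FPKM or more and of 1.54 over all genes above that limit. The members in this range were also more abundant, with a median level of 67.6 FPKM against 29.1 FPKM.

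**Figure D1:**
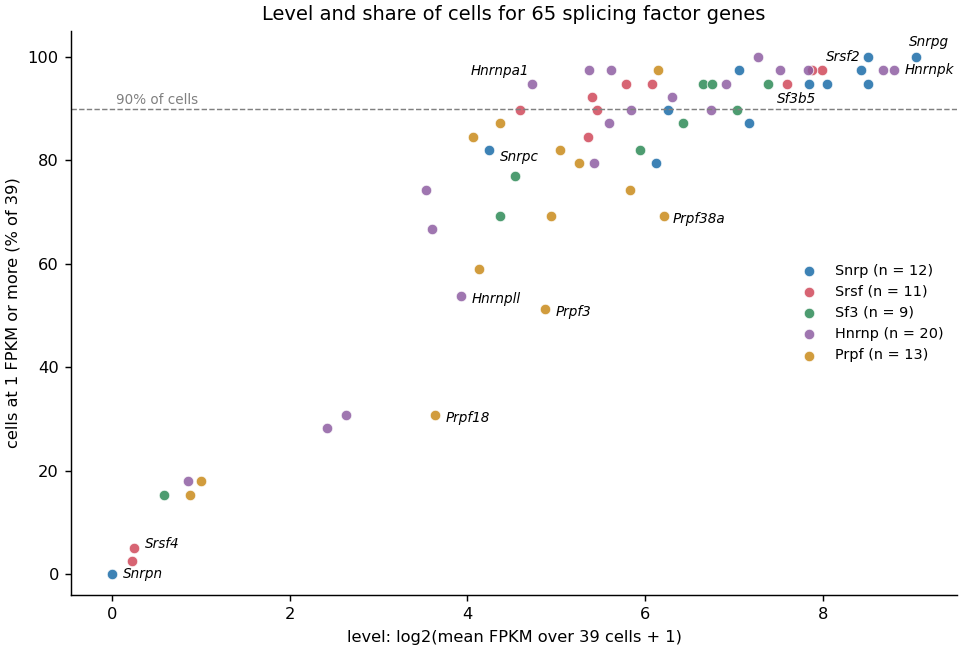
Each point is 1 of the 65 genes, with its level as log2 of the mean FPKM plus 1 on the horizontal axis, the percent of the 39 cells at 1 FPKM or more on the vertical axis and its family in colour. The 3 genes in every cell are Snrpg, Snrpb and Hnrnpu, 27 points lie above the dashed line at 90%, and Prpf genes such as Prpf38a, Prpf3 and Prpf18 lie below other genes of like mean level.

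The families differed in level and breadth. The median member was detected in 94.9% of cells for Snrp, 92.3% for Srsf, 91.03% for Hnrnp, 87.2% for Sf3 and 69.2% for Prpf. The median of the members' mean levels followed another order, at 185 FPKM for Snrp, 84.9 for Sf3, 47.6 for Hnrnp, 42.8 for Srsf and 28.2 for Prpf. Only 1 of 13 Prpf genes reached 90% of cells, against 7 of 12 Snrp, 6 of 11 Srsf, 3 of 9 Sf3 and 10 of 20 Hnrnp genes. The median CV of Prpf genes, 1.39, was the highest of the families, and that of Snrp genes, 0.70, the lowest. With detection set at any value above 0 FPKM, 42 of 65 members instead of 27 reached 90% of cells, against 6.31% of all genes at that limit.

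RNA of the 7 genes of the Sm ring, whose proteins encircle the RNA of most spliceosomal snRNPs, was broadly detected. All 7 genes reached at least 90% of cells. Snrpg (Entrez Gene 68011; mm10 chromosome 6, 86371540 to 86378902, plus strand), one of the ring proteins, ranged from 8.54 to 1561 FPKM over the 39 cells, with a median of 510. It was detected in every cell (exact Clopper-Pearson 95% interval 90.97 to 100%, counting error only) and had the highest mean of all 65 members, 528 FPKM. Snrpb (Entrez Gene 20638; chromosome 2, 130171636 to 130179364, minus strand), also detected in every cell, ranged from 1.497 to 1225 FPKM with a median of 339. Snrpe had a median of 368 FPKM and a highest value of 898, but was at 0 in 2 cells. Snrpd2 had a median of 319 FPKM (highest 829) and Snrpd3 one of 220 FPKM (highest 705). Snrpd1 had a median of 236 FPKM (highest 456) and Snrpf, the lowest of the ring, one of 132 FPKM (highest 314). The distributions over cells overlapped for all 7 genes, so the order of their medians is not an order within each cell. Snrpg held a median of 20.6% of the summed FPKM of the Snrp family in a cell and was its leading gene in 21 of 39 cells. Its transcript is short (393 bases), and its share of the family's estimated counts, not divided by length, was 11.7%.

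RNA of the genes for proteins particular to the U1 and U2 snRNPs was detected in fewer cells than that of the ring genes. Snrpa, the A protein of the U1 snRNP, had a lowest value of 0, a median of 35.8 and a highest value of 272 FPKM, and was detected in 31 cells (79.5%, interval 63.5 to 90.7%). Snrpc, the C protein of the same particle, which contacts the 5′ splice site, had a median of 9.17 FPKM and a highest value of 88.4. The U2 proteins Snrpa1 and Snrpb2 had medians of 129 and 45.5 FPKM and were detected in 34 and 35 cells. Snrpa1 was at the level of the ring gene Snrpf, with a mean of 142 against 131 FPKM, and the other 3 genes were lower than every ring gene. None of the 4 genes reached 90% of the 39 cells, but without cells 9 and 79 Snrpb2 (94.6%) and Snrpa1 (91.9%) did.

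Snrpn, a paralog of Snrpb known from neurons and from imprinting, had 0 counts in all 39 cells, which allows detection in up to 7.69% of cells (3 of 39) by counting error alone, or up to 9.03% by the exact interval. This 0 cannot be read as a lack of Snrpn RNA. The deposited annotation lists the same 4 transcripts for Snrpn and for Snurf, an overlapping gene on the same strand of chromosome 7 that shares its transcript with Snrpn. Snurf had 7081 summed counts, was above 0 in 28 cells and at 1 FPKM or more in 22 cells, with a median of 5.15 and a highest value of 142 FPKM in cell 72. How the reads of these shared transcripts were assigned is not given in the sources used here.

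The same limit touched other members. Hnrnpa1, which binds splicing silencers, had a lowest value of 0, a median of 11.2 and a highest value of 121 FPKM. The overlapping genes Gm10052 and Gm5643 list the same 5 transcripts and had medians of 394 and 357 FPKM, and only 4.64% of the estimated counts of these 3 genes lay on Hnrnpa1. Hnrnpa3 (median 34.8 FPKM) held 42.8% of the counts it shared with Gm6793 (median 209 FPKM). The levels of Hnrnpa1 and Hnrnpa3 are therefore uncertain. Sf3a3, Sf3b3 and Hnrnpk also share a transcript list with a small RNA gene inside them, but those small RNA genes had 0 counts. In all, 12 members overlapped another gene of the table, and 29 had a count that was not whole (beyond 0.001) in at least 1 cell.

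Among the Srsf genes, 3 genes took most of the family's RNA. Srsf3 (Entrez Gene 20383; chromosome 17, 29032660 to 29043372, plus strand), the smallest SR protein, ranged from 0.997 to 522 FPKM with a median of 226. Srsf2, which binds exonic enhancers, ranged from 0 to 1654 FPKM with a median of 165, and its highest value, in cell 52, made up 16.8% of its sum over all cells. Srsf7, which is closely related to Srsf3, ranged from 0 to 515 FPKM with a median of 198. Srsf3 led the family in 13 cells, Srsf2 in 11 and Srsf7 in 10, so no single gene led in most cells. Srsf1, the founding member, was lower, with a lowest value of 0, a median of 26.9 and a highest value of 135 FPKM. Srsf4 was detected in 2 cells, with a highest value of 3.40 FPKM, and Srsf12 in cell 51 alone, at 6.77 FPKM. Srsf3 and Srsf7 varied together over cells, with a Spearman rho of 0.65 (39 cells, a description without a test), the second highest value of the 1711 pairs of members averaging 1 FPKM or more.

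Within the Sf3 family no gene led consistently. Sf3b5 (Entrez Gene 66125; chromosome 10, 13008450 to 13009183, plus strand), the smallest subunit of SF3b, had a lowest value of 0, a median of 137 and a highest value of 661 FPKM. Sf3a3 of SF3a had a median of 116 FPKM and a highest value of 522. Sf3b2 had a median of 79.02 FPKM, a lowest value of 0.268 in cell 79 and a highest of 318 in cell 4. Sf3b1, the largest SF3b subunit and the one that clamps the branch site, had a median of 73.2 FPKM and a highest value of 372, and Sf3b6, which touches the branch site, had a median of 82.4 FPKM and a highest value of 379. Sf3b5 led in 10 cells and Sf3a3 in 9. Sf3a2 was far below its partners, with a highest value of 4.70 FPKM and detection in 6 cells, although SF3a is known as a complex of Sf3a1, Sf3a2 and Sf3a3.

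Promoters were compared because the families varied together over cells. RefSeq promoter windows (GRCm38.p6, 250 bases before to 50 bases after each start) were found for 57 of 65 members. The string CCGGAAG, a core of the sites bound by ETS transcription factors, was searched on both strands. It was 1 of 11 strings looked at and was taken up after their shares were seen, so its share is a description. At least 1 window of 20 of 57 members (35.1%) held it, against 9.93% of the 27025 genes of the promoter table. Among genes averaging 1 FPKM or more, 18 of 51 members (35.3%) held it, against 22.8% of 7393 genes. The families differed, with 6 of 7 Sf3, 4 of 10 Snrp, 4 of 11 Srsf, 4 of 11 Prpf and 2 of 18 Hnrnp genes. The other strings were TTTCCGG (19.3% of members, 8.24% of genes averaging 1 FPKM or more), CCCGCC (78.9% and 67.7%), CCAAT (50.9% and 43.5%), CACGTG (15.8% and 12.3%), TATAAA (12.3% and 8.79%) and AAGATGGCG (3.51% and 4.15%), and 4 longer ones, namely a pair of variants of the NRF1 site (10.5% and 4.004%, 1.75% and 2.53%), the palindromic CGCG box (1.75% and 1.37%) and the ZNF143 site (0% and 0.906%). TTTCCGG on one strand reads CCGGAAA on the other and so overlaps CCGGAAG in part, and where they stand together the same letters count for both. The 7 matches of the Sf3 genes are shown, 1 per line, because this family held the string most often. Each is given 5′ to 3′ on the strand of the gene, with 11 bases on either side and the match in capitals (CTTCCGG where it lies on the other strand).
Sf3a1 (chr11:4160336-4160364, plus strand, 7 bases before the start): agagggcgggaCCGGAAGtgctcccgcgg
Sf3a2 (chr10:80798648-80798676, plus strand, 76 bases before the start): cgcctttgctcCCGGAAGggatcgcttcg
Sf3a3 (chr4:124714760-124714788, plus strand, 90 bases before the start): cccccaagacaCTTCCGGgacacgcggaa
Sf3b2 (chr19:5295451-5295479, minus strand, 11 bases before the start): ggattacgcaaCCGGAAGtttctggaagt
Sf3b3 (chr8:110847015-110847043, minus strand, 229 bases before the start): cccggtgggcgCTTCCGGgcttgcgaggt
Sf3b6 (chr12:4817512-4817540, plus strand, 85 bases before the start): tcgccccgcccCTTCCGGtccgcaatccg
Sf3b6 (chr12:4817527-4817555, plus strand, 70 bases before the start): cggtccgcaatCCGGAAGcgttctggagc
The matches began 7 to 229 bases before the start of transcription, closest for Sf3a1 and farthest for Sf3b3. Sf3a2 carried the string although it was listed at under 1 FPKM on average, and Sf3b6 carried it in both orientations. A match is a string of letters in a window and not a measured binding site.

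In the Hnrnp family, Hnrnpk and Hnrnpf were the most abundant genes. Hnrnpk (Entrez Gene 15387; chromosome 13, 58391132 to 58403343, minus strand), which binds C-rich RNA, ranged from 0.364 to 1349 FPKM with a median of 445. Hnrnpf (Entrez Gene 98758; chromosome 6, 117900340 to 117925622, plus strand), which binds G-rich RNA, ranged from 0.724 to 1127 FPKM with a median of 410. Hnrnpk led the family in 22 cells and Hnrnpf in 10. Hnrnpa2b1 had the lowest CV of all members averaging 10 FPKM or more, 0.49, with a lowest value of 0.459, a median of 232 and a highest value of 500 FPKM. Hnrnpu, a nuclear scaffold protein, was detected in every cell, from 19.5 to 355 FPKM with a median of 144. Hnrnpll, known for regulating Cd45 exons in lymphocytes, was detected in 21 cells (53.8%, interval 37.2 to 69.9%), with a median of 2.43 and a highest value of 190 FPKM in cell 29, which alone made up 34.3% of its sum. Ptprc, the gene of Cd45, was below 1 FPKM in all cells. Hnrnpul1 was detected in 7 cells, at most at 11.01 FPKM.

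The Prpf genes varied most from cell to cell. Prpf38a, which joins at spliceosome activation, had the highest mean of the family, 73.0 FPKM, but a median of 33.2, a lowest value of 0 and a highest of 305, and was detected in 27 cells. Prpf31 and Prpf8 had medians of 41.1 and 18.2 FPKM. Prpf8, the scaffold of the catalytic centre, reached 219 FPKM in cell 92. Prpf3, a tri-snRNP protein, was detected in 20 cells, with a median of 1.11 and a highest value of 335 FPKM in the same cell. Prpf18, which acts in the second catalytic step, was detected in 12 cells (30.8%, interval 17.02 to 47.6%), with a median of 0.0951 and a highest value of 143 FPKM in cell 4, or 32.1% of its sum. Prpf19 and Prpf40b were detected in 7 and 6 cells. Prpf18, Prpf19 and Prpf40b were thus detected in few cells, whereas every Sm ring gene was detected in at least 90% of cells. Other Prpf genes were broader, with Prpf4b in 34 cells, Prpf8 in 32 and Prpf31 in 29. The median Prpf gene was detected in 69.2% of cells. The family was also lower in level, with a median of the mean levels of 28.2 FPKM against 185 for Snrp.

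**Figure D2:**
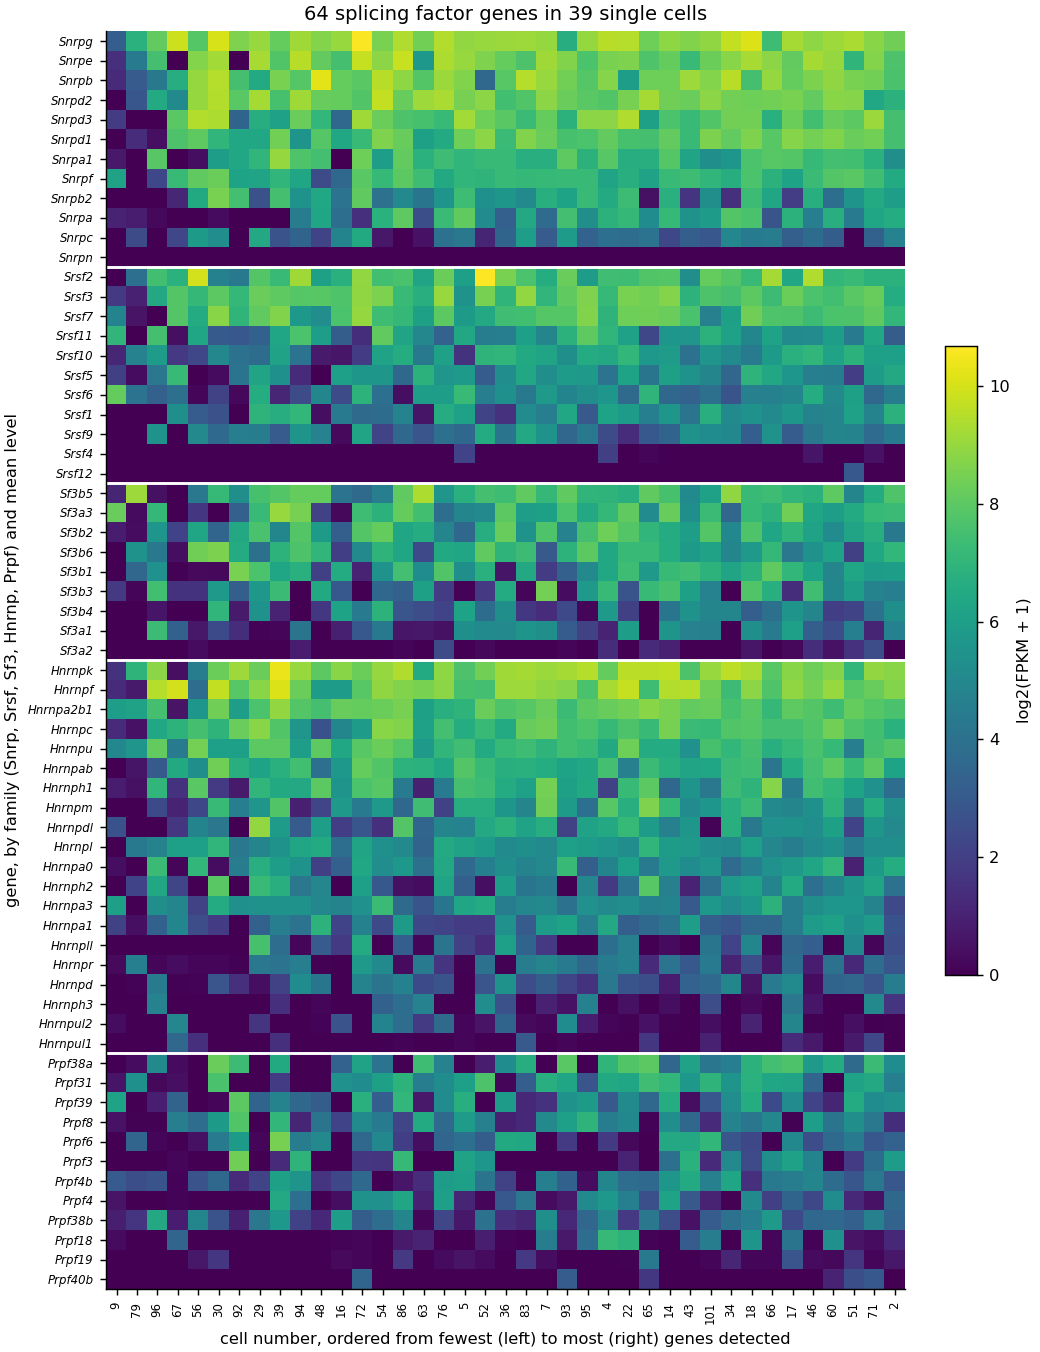
Rows are 64 of the 65 genes by family and mean level, columns are the 39 cells ordered by the number of genes detected outside the members, and colour is log2(FPKM + 1). The upper rows of Snrp, Srsf and Hnrnp are bright in nearly all columns except those of cells 9 and 79 at the left, and the Prpf block is patchy in all columns.

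Splicing genes outside the 5 families were measured over a list of 31 genes, which was put together with earlier results of these data known. All 31 averaged 1 FPKM or more, and 9 of them (Snrnp27, U2af1, Lsm3, Lsm6, Lsm7, Bcas2, Tra2b, Rbm25 and Rbm39) were detected in at least 90% of cells. Lsm7, of the ring that binds U6 RNA, had a median of 345 FPKM, in the range of the Sm genes. The epithelial regulator Esrp1 was detected in 26 cells with a median of 9.49 FPKM, and Esrp2 in 8 cells. Of 12 regulators known mainly from neurons or muscle, 10 (Nova1, Nova2, Rbfox1, Rbfox3, Celf5, Elavl2, Elavl3, Elavl4, Srrm4 and Khdrbs2) were at 0 in every cell. Ptbp2 was detected in 6 cells and Celf4 in 1. Ptbp1, the broadly expressed relative of Ptbp2, had a median of 75.0 FPKM and was detected in 34 cells.

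To compare cells, a score was taken for each family as the mean of log2(FPKM + 1) over its members. On this scale the mean ± SD over 39 cells was 6.01 ± 1.35 for Snrp, 4.59 ± 0.96 for Hnrnp, 4.45 ± 0.86 for Srsf, 4.41 ± 1.16 for Sf3 and 2.94 ± 0.89 for Prpf. The score over all 65 members ranged from 1.49 in cell 9 to 5.34 in cell 18, with a median of 4.77. Of the 39 cells, 29 lay at 4.5 or above and 9 under 4, and cells 9 and 79, at 1.49 and 1.65, lay apart from the next, cell 67 at 2.71. Cell 9 had the lowest depth, 398418 counts, and 33.4% of its FPKM total lay on genes, against 63.5% in cell 79 and a median of 88.1% over all cells. Between 23 and 59 members were detected per cell, with a median of 52. Cells 9 and 79, with 26 and 23 members detected, held the highest values of 4 of the 12 markers of differentiated cells that were above 0 in any cell, namely Alpi (282 FPKM) and Clca1 (29.2 FPKM) in cell 9 and Fabp1 (40997 FPKM) and Trpm5 (181 FPKM) in cell 79. The other 8 markers peaked in other cells, and the stem cell marker Smoc2 also peaked in cell 9, at 612 FPKM. Marker sets were set against the score as their mean log2(FPKM + 1), and the FPKM ranges given beside them are of their summed level. Over all 39 cells the score had a rho of 0.52 with 4 markers of crypt base stem cells (Olfm4, Lgr5, Ascl2 and Smoc2). The summed level of these 4 markers ranged from 0.75 to 3858 FPKM. The score had a rho of 0.52 as well with 5 proliferation genes (Mki67, Top2a, Pcna, Mcm2 and Mcm5), summing to 0.121 to 1045 FPKM. The rho was -0.34 with 3 Paneth cell markers (1.31 to 8675 FPKM), -0.25 with 3 enterocyte markers (0 to 41006 FPKM), -0.26 with 2 tuft cell markers (0 to 286 FPKM) and -0.14 with 3 goblet cell markers (0 to 11289 FPKM). Without cells 9 and 79 it was -0.35 for Paneth cell, -0.12 for enterocyte, -0.21 for tuft cell and -0.016 for goblet cell markers, and 0.49 and 0.45 for the stem cell and proliferation genes. Of the enteroendocrine markers, Chga was at 0 in every cell and Chgb reached at most 0.227 FPKM. The part of these markers and of RNA quality in the scores was not tested.

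The score followed the number of genes detected in a cell. Over 39 cells the Spearman rho of the score with genes detected outside the members was 0.66 for all members (Pearson r = 0.80), 0.63 for Srsf and for Prpf, 0.62 for Sf3, 0.44 for Snrp and 0.41 for Hnrnp. Without cells 9 and 79 the rho for all members was 0.60 and the r was 0.69, and for Hnrnp the rho was 0.30. Thinning every cell to 300000 reads before genes were counted gave a rho of 0.63 for all members. All points share their library, depth and amplification with the genes that were counted. The score of 39 proteasome subunit genes had a rho of 0.74 and an r of 0.79 with genes detected, or 0.70 and 0.69 without cells 9 and 79. For 83 cytosolic ribosomal protein genes the measures differed in sign, with a rho of -0.06 and an r of 0.55, or -0.24 and 0.14 without cells 9 and 79. Differences between these gene groups were not tested.

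**Figure D3:**
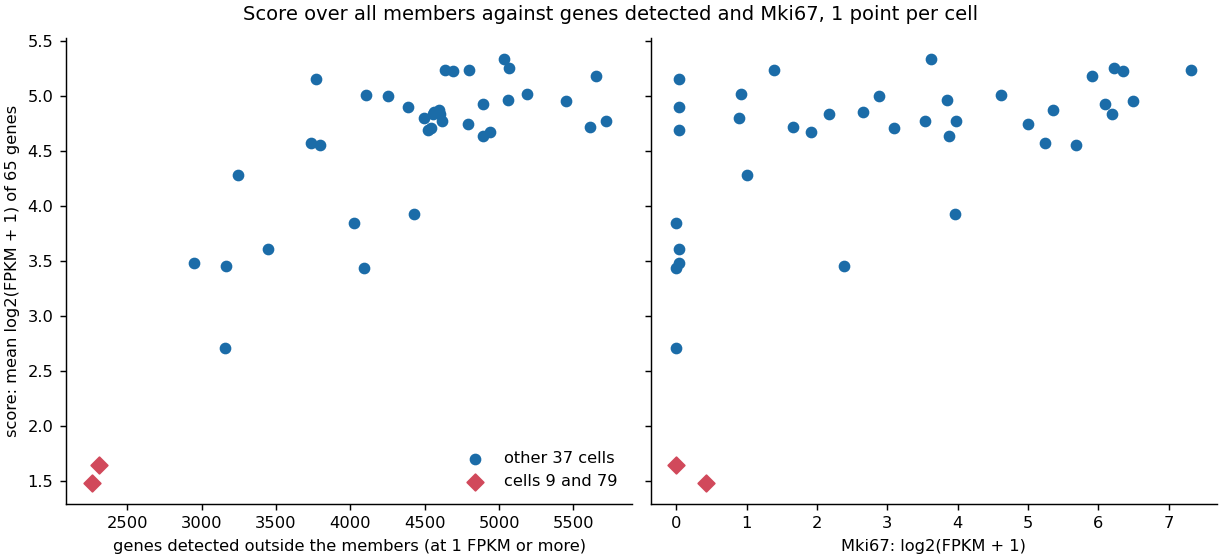
Each point is 1 cell, with the score over all members (mean log2(FPKM + 1) of 65 genes) on the vertical axis of both panels. The left panel shows it against the number of genes detected outside the members and the right panel against log2(FPKM + 1) of Mki67. Cells 9 and 79 (diamonds) lie lowest in both, and cells with Mki67 under 1 FPKM span scores from 1.49 to 5.16.

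Gene by gene, 20 of the 59 members averaging 1 FPKM or more (33.9%) had a rho of at least 0.3 with genes detected, against 25.3% of 9804 genes, and 57 of 59 had a rho above 0, against 82.4%. The median rho was 0.25 for members and 0.18 for all genes. These members were also more abundant, with a median level of 60.3 FPKM against 10.1 FPKM, and the comparison was not matched for level. By family, 8 of 12 Prpf, 5 of 19 Hnrnp, 3 of 8 Sf3, 2 of 11 Snrp and 2 of 9 Srsf genes reached 0.3. High values were those of Snrpa (0.58), Snrpd1 (0.56), Prpf18 (0.51) and Srsf10 (0.51), and the lowest was that of Hnrnpa3 (-0.02). Without cells 9 and 79, 14 of 59 members (23.7%) reached 0.3, against 19.8% of all genes.

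The link to proliferation was examined with Mki67, the gene of the proliferation marker Ki67. Mki67 was detected in 27 cells and at 0 in 4, with a median of 6.33 and a highest value of 158 FPKM in cell 4. The rho of the score with log2(FPKM + 1) of Mki67 was 0.59 for Hnrnp, 0.57 for Sf3, 0.46 for Srsf, 0.30 for Snrp and 0.29 for Prpf, and 0.52 over all members (r = 0.53). Without the 2 cells with the highest Mki67 (4 and 60), it was 0.48 over all members. Without cells 9 and 79 it was 0.47 over all members, 0.20 for Snrp and 0.21 for Prpf. Mki67 itself had a rho of 0.53 with genes detected. With genes detected held equal (partial correlation), the rho was 0.48 for Hnrnp, 0.37 for Sf3, 0.20 for Srsf, 0.08 for Snrp and -0.06 for Prpf, and 0.28 over all members. Among the 27 cells with Mki67 at 1 FPKM or more, it was 0.55 for Hnrnp and 0.32 for Sf3, but 0.08 for Srsf, 0.02 for Snrp and 0.11 for Prpf. The Hnrnp score had a rho of at least 0.48 with Mki67 in each of these views, although the Pearson value with genes detected held equal was 0.32, near the 0.30 of Sf3, while those of Snrp, Srsf and Prpf were at most 0.20 in the latter views. The proteasome genes had a rho of 0.34 with Mki67 (-0.09 with genes detected held equal) and a Pearson r of 0.38. The ribosomal protein genes had a rho of -0.11 and an r of 0.23. Without cells 9 and 79 the proteasome genes had a rho of 0.26 and an r of 0.29. The ribosomal protein genes then had -0.24 and 0.0017. Of single genes averaging 1 FPKM or more, 6 of 19 Hnrnp and 4 of 12 Prpf genes had a rho of at least 0.3 with Mki67. So did 2 of 8 Sf3, 1 of 11 Snrp and 1 of 9 Srsf genes, against 13.3% of all such genes. The median rho of single genes was 0.24 for Srsf, 0.23 for Hnrnp, 0.22 for Snrp, 0.18 for Sf3 and 0.13 for Prpf. Differences between the families' correlations were not tested.

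**Figure D4:**
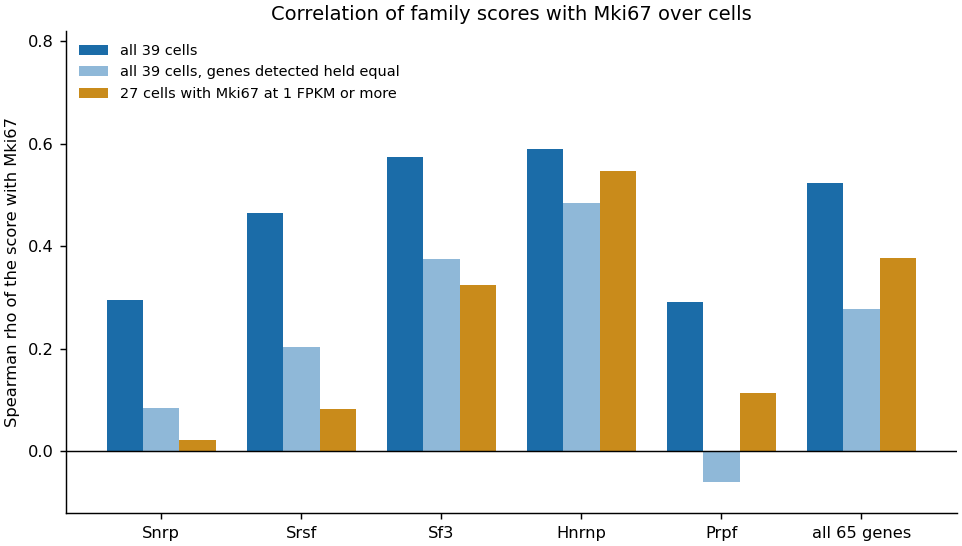
Bars give the Spearman rho of each family score with Mki67 over all 39 cells, over all 39 cells with the number of genes detected held equal, and over the 27 cells with Mki67 at 1 FPKM or more. For Hnrnp the 3 bars stand at 0.59, 0.48 and 0.55, and for Snrp at 0.30, 0.08 and 0.02.

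Sf3b2 had the highest single correlation with Mki67, not only among the members but among all 9803 genes averaging 1 FPKM or more, with a rho of 0.74. Cell 4 had the highest value of both Mki67 and Sf3b2 (318 FPKM), but in cell 60, with the second highest Mki67 (88.8 FPKM), Sf3b2 was at 34.97 FPKM, below its median. Where Mki67 was at 0, Sf3b2 was at 0.268 FPKM in cell 79, 3.41 in cell 67, 8.36 in cell 16 and 55.03 in cell 48. The rho of Sf3b2 was 0.73 with genes detected held equal, 0.72 without cells 9 and 79, and 0.62 in the 27 cells with Mki67 at 1 FPKM or more, and the Pearson r was 0.67. Prpf18, second among the members and at rank 55 among all genes, had a rho of 0.55, and 0.38 with genes detected held equal. Hnrnpr, a widely expressed Hnrnp protein, was at rank 93 with a rho of 0.51, and 0.31 in the 27 cells with Mki67 at 1 FPKM or more. The other subunits of SF3a and SF3b averaging 1 FPKM or more had rho values from 0.10 (Sf3b5) to 0.40 (Sf3a3), below that of Sf3b2, which is named here as the highest of these values. At the low end were Prpf8 (-0.13), Prpf3 (-0.02) and Prpf39 (-0.0047). In all, 14 of 59 members (23.7%) had a rho of at least 0.3, against 13.3% of 9803 genes. A rho above 0 was found for 55 of 59, against 68.7%. This comparison was not matched for level either.

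**Figure D5:**
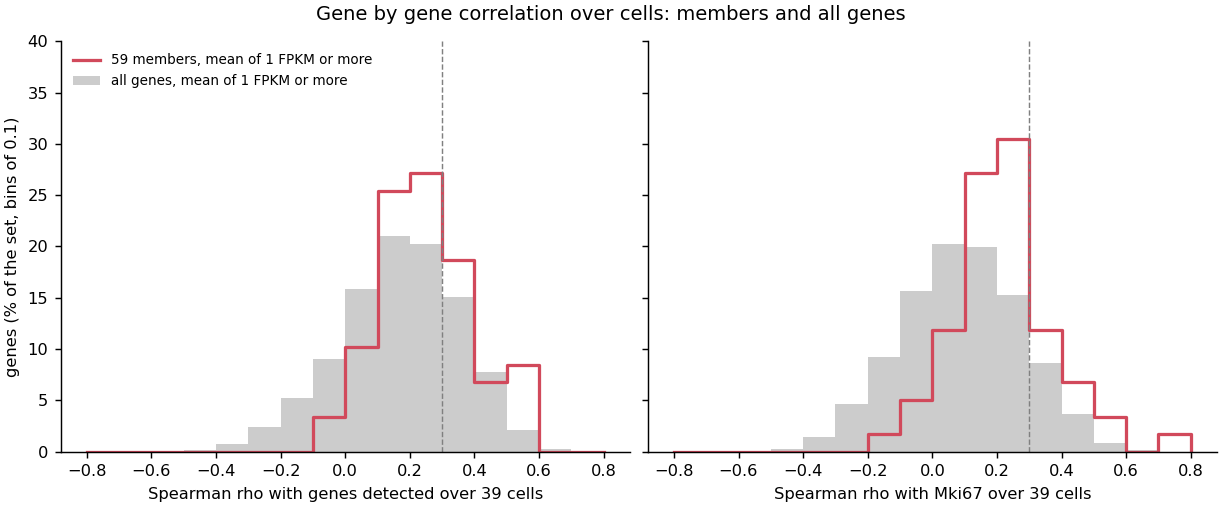
Histograms in bins of 0.1 of the Spearman rho of single genes with genes detected (left) and with Mki67 (right) over 39 cells, as the percent of 59 members (line) and of all genes averaging 1 FPKM or more (grey). The members' median lies at 0.25 against 0.18 on the left and at 0.22 against 0.09 on the right, and the member in the farthest bin on the right is Sf3b2.

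The families varied together over cells, in part with the number of genes detected. The rho between 2 family scores ranged from 0.29 (Snrp and Sf3) to 0.57 (Sf3 and Prpf) over the 10 pairs, with a median of 0.51. Without cells 9 and 79 the median was 0.43, and with genes detected held equal it was 0.30, from 0.03 to 0.40. Single genes varied together less. The median rho was 0.16 over 356 pairs of genes of 1 family and 0.15 over 1355 pairs of genes of different families, against 0.03 over all pairs of genes averaging 1 FPKM or more. It was highest within Snrp, at 0.26, where 96.4% of 55 pairs were above 0. The highest value of a pair, 0.69, joined genes of different families, Snrpb2 and Prpf8, and Hnrnpu and Hnrnpa0 had 0.63. The lowest, -0.41, was that of Prpf4b and Hnrnpul2. Cells share their depth and amplification for every pair, the pairs were not matched for level, and no value was tested.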

How the data were processed

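Single cells were captured on a microfluidic chip and inspected under the microscope, so no doublets were called. cDNA was made with the SMARTer kit and libraries with the Nextera XT kit, without molecular identifiers, so intervals cover counting error only. For each of 25219 genes and 39 cells, an FPKM value and an estimated count (not normalized) were deposited by the authors. FPKM divides by a total that exceeds the sum over genes, 33.4% to 95.2% of which lay on genes. The submitters' processing notes name bcl2fastq 1.8.4, TopHat2 2.0.14 and mm10 (GRCm38). The program that estimated the counts is not given in the sources used here.

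FPKM values were used as deposited, with a pseudocount of 1 FPKM on the log2 scale. Estimated counts served for depth and, rounded, for thinning to 300000 reads. Count models were not used, since all cells are 1 biological sample. The members and lists were chosen with earlier results of these data known. Named genes were, in each family, the 3 with the highest mean, the 1 with the lowest mean and those with the highest and lowest rho with genes detected, over all members the 3 highest and 3 lowest rho with Mki67 and CV (among those averaging 10 FPKM or more), and genes fixed by role. Other members (Srsf4, Hnrnpu, Prpf19, Hnrnpa0, Prpf4b, Hnrnpul2, Sf3b3) were named after their values were seen. A member that the rule names is not reported here. Alternatives were other pseudocounts, detection limits, filters, scaling, Pearson correlation and fewer cells. The gene by gene correlation was run on simulated data over 9804 genes, against a factor per cell and not against genes detected or Mki67. An effect of 1.5 on the log2 scale per SD of this factor was planted in 200 genes. All of these (100%) and 3.68% of the others were found, which covers only an effect of this size. In the real cells 25.3% of genes reached the rho limit with genes detected and 13.3% with Mki67. The 3.68% therefore cannot be read as a rate of false calls for those correlations. The tools were numpy 2.4.6 with scipy 1.17.1, pandas 2.3.3 and matplotlib 3.10.9, under Python 3.11.15.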

Additional observations from a re-analysis of the deposited data

How the results depend on the processing

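Of 243 alternative values, 229 lay within a set limit of the reported value, 14 moved further and none changed sign beyond these limits. The limits were 1 SD over cells, 0.167 for a correlation, the 95% interval for a share or 1.5 times for a count. The number of members detected in at least 90% of cells was 42 at any value above 0 FPKM, a limit that 6.31% of all genes reached. The Srsf score was 5.41 over members with a mean of at least 1 FPKM and equally at 10 FPKM, and the Prpf score 1.83 with a pseudocount of 0.1 FPKM. Pearson correlation raised the link to genes detected to 0.73 for Snrp and 0.68 for Hnrnp and the median between families to 0.70, and lowered the Hnrnp link to Mki67 at equal genes detected to 0.32. In cells with Mki67 at 1 FPKM or more the link to Mki67 was 0.022 for Snrp, 0.083 for Srsf, 0.32 for Sf3 and 0.11 for Prpf. At a rho of at least 0.5, 5 members were linked to genes detected (8.47%, against 2.48% of all genes). The share of the gene with the highest mean was also taken on estimated counts, not divided by length. It was 11.7% for Snrp, 11.3% for Srsf, 4.86% for Sf3 and 4.03% for Prpf, against 20.6%, 17.4%, 17.3% and 10.6% on FPKM. These shares are counted among the 229 although they fell. Their SD over cells was wide, such as 20.5 for Sf3b5 and 16.8 for Prpf38a. The causes were not tested. The alternatives for Sf3b2, Prpf18 and Hnrnpr were added after seeing the data.

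No paired analysis was possible because all cells belong to 1 group. The number of cells limits every share.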
